A study of Homo sapiens with 6 samples.

Results

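Plakins and desmosome genes were described in MDA-MB-231 cells, a human line from a basal-like breast cancer, without irradiation (0 Gy) and 24 h after gamma irradiation with 10 Gy. The 8 genes are PPL, EVPL and DSP, which encode the plakins periplakin, envoplakin and desmoplakin, JUP, PKP2 and PKP3, which encode plakoglobin and a pair of plakophilins, and the desmosomal cadherin genes DSG2 and DSC2. They are 8 of the 58735 genes in the deposited table. The group was chosen by the measured change of PPL, which lay among the largest increases after 10 Gy, and the other genes were added as its family. The change between doses is therefore given for all 8 as a description, with no p-value, and where members past the threshold of the fit are counted, the count describes them and tests nothing. Each dose has 3 libraries of polyA RNA, and all 6 come from cells labelled SCR with the genotype WT, which the paper describes as carrying a non-targeting control shRNA. The labels do not say whether the replicates were separate cultures, so the spread between libraries may be technical. MAFF knockdown cells were not analysed here.

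Desmosomes join the intermediate filaments of neighboring cells. Desmogleins and desmocollins cross the gap between the cells, plakoglobin and plakophilins bind their tails inside, and desmoplakin ties this plaque to keratin or vimentin filaments. Periplakin and envoplakin belong to the same plakin family and are best known from the cornified envelope of skin, where they bind each other, and periplakin also binds intermediate filaments in simple epithelial cells. Plakoglobin is a close relative of beta-catenin and is shared by desmosomes and adherens junctions.

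Expression is given as FPKM (fragments per kilobase of gene, scaled to library depth), as deposited, so that levels of different genes are compared per length. Whole reads recovered from these values summed to between 15643641 and 28861781 per library. Differences between doses are on the log2(FPKM + 1) scale of limma, with the standard error (SE), fitted to the 12128 genes whose level averaged 1 FPKM or more, and genes with an adjusted p under 0.05 are referred to as called. All 8 genes reached this level. Among markers of this cell type, VIM was at 301 ± 9.54, CD44 at 78.6 ± 2.60 and EGFR at 29.8 ± 2.95 FPKM at 0 Gy (SD, n = 3), while ESR1 was at 0.0087 FPKM and PGR had 0 reads. The basal keratin genes KRT5, KRT14 and KRT17, which are outside this marker list, were at only 0, 0.0135 and 0.0883 FPKM at 0 Gy. The 5 basal-like markers together summed to 641 to 658 FPKM at 0 Gy and 537 to 552 FPKM at 10 Gy. Of these, 4 were called lower, against 23.7% of all tested genes, and CD44 in only 2 of 13 alternative fits. The 6 luminal and receptor markers summed to 11.1 to 12.3 FPKM at either dose. Most of this sum came from ERBB2 at 7.08 ± 0.39, GATA3 at 3.05 ± 0.22 and EPCAM at 1.44 ± 0.12 FPKM at 0 Gy (SD, n = 3). FOXA1 was at 0.0241 FPKM. CDH1, which encodes the E-cadherin of epithelial adherens junctions, was at only 0.324 ± 0.048 FPKM (SD, n = 3). Of 6 markers of immune, endothelial and stromal cells, PTPRC, CD68, COL3A1 and DCN had at most 9 reads over the 3 libraries of either dose, and their part in the results was not tested. COL1A1 and PECAM1 were low but measured, and both rose, from 3.03 ± 0.0675 to 4.19 ± 0.146 FPKM and from 1.22 ± 0.0085 to 1.94 ± 0.0481 FPKM (SD, n = 3), so that the list summed to 4.27 to 4.38 FPKM at 0 Gy and 6.04 to 6.27 FPKM at 10 Gy.

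At 0 Gy all 8 genes were expressed, at levels that differed widely. DSG2 had the highest level of the 8, with 24.4, 25.2 and 25.0 FPKM in replicates 1 to 3 (mean 24.9 ± 0.396, SD, n = 3). JUP followed with 18.7, 19.8 and 17.2 FPKM (18.6 ± 1.29). The next 2 genes, PKP3 at 15.2 ± 0.926 and EVPL at 14.9 ± 0.373 FPKM, had overlapping values and are not separated by these libraries. Below them stood PKP2 at 11.8 ± 0.402, DSP at 6.92 ± 0.300 and PPL at 4.35 ± 0.092 FPKM. DSC2 was the lowest, at 1.08 ± 0.139 FPKM. Apart from PKP3 and EVPL, neighbors in this order did not overlap in any library, and the order was the same with each control library left out. TPM scales each library by a single factor and cannot change the order within a library, so it is no check of this order. Against all tested genes, DSG2 stood at the 82.7th percentile of levels at 0 Gy, PPL at the 36.3rd and DSC2 at the 3.29th.

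**Figure D1:**
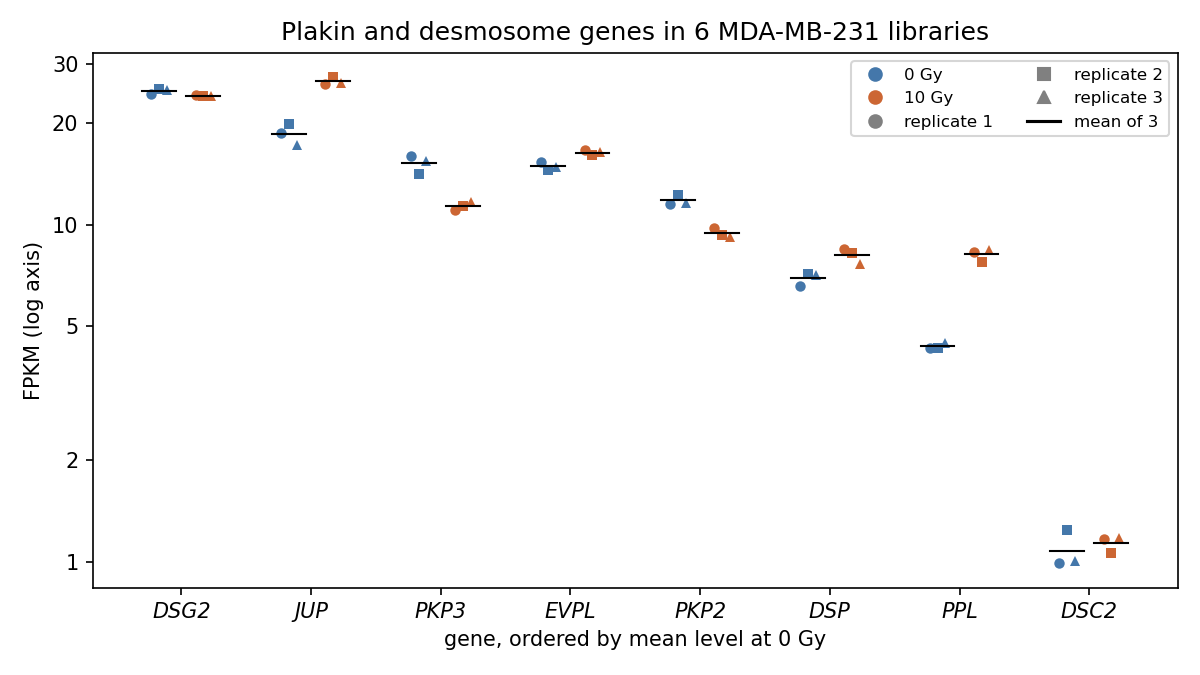
FPKM of the 8 genes in each library on a log axis, with 0 Gy in blue, 10 Gy in orange, a marker shape for each replicate number and a black bar for the mean of 3. PPL and JUP lie higher at 10 Gy, PKP3 and PKP2 lie lower, and the values of DSC2 overlap.

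The desmosomal cadherin genes lie in a single cluster of 559 kb on chromosome 18 of GRCh38, from DSC3 at 30990008 to the end of DSG2 at 31549008. Of the 7 genes in the cluster, DSG2 and DSC2 had more than 2 reads. DSG2 had 8971 reads over the 3 libraries at 0 Gy and 10429 at 10 Gy, and DSC2 had 775 and 998. DSG1, DSG3 and DSG4, which encode the desmogleins of stratified epithelium and hair, had 0 reads in all 6 libraries. With 3 reads over a group as the limit that a count of 0 allows, their level at 0 Gy was at most 0.00979, 0.0093 and 0.01095 FPKM, a limit that covers counting error only. DSC1 had 1 read and DSC3 2 reads in all. Within a library, DSG2 exceeded DSC2 by 20.3 to 24.8 times in FPKM at 0 Gy and by 20.5 to 22.6 times at 10 Gy, and these values overlapped between doses. These ratios rest on the deposited gene lengths, 6190 bases for DSG2 and 12495 for DSC2, with a single length per gene. In reads the difference was smaller.

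Promoter windows of RefSeq on GRCh38.p14, 250 bases before to 50 after a start, were at hand for 4 of the 8 genes, DSP, JUP, DSC2 and DSG2. The bases shown lie upstream of both the RefSeq start and the start in the deposited table. They are given for DSP, DSG2 and DSC2. DSG2 and DSC2 are cadherin genes of the same cluster and had the highest and the lowest level of the 8 at 0 Gy. Each CAGGTG or its reverse complement CACCTG is in capitals. This is the E-box bound by the repressors of the ZEB and SNAIL families, which are known for acting on junction genes.
DSP, upstream bases at chr6:7541421-7541574 (+ strand): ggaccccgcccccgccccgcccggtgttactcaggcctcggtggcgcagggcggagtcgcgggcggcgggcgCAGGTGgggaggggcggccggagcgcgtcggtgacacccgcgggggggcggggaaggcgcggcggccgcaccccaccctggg
DSG2, upstream bases at chr18:31497927-31498042 (+ strand): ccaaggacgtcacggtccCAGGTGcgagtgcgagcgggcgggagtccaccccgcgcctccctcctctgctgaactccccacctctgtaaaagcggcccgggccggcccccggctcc
DSC2, upstream bases at chr18:31102523-31102671 (- strand): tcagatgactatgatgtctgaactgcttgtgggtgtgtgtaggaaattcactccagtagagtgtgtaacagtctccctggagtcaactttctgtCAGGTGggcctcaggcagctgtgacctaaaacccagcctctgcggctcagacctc
Over the whole window of 300 bases, this E-box was found 2 times for DSP, 2 times for DSG2, 1 time for the outer start of DSC2 and 0 times for its inner start. JUP had 0 at its outer start and 2 at its inner start. Of all 35116 promoter windows in the table, 20.6% held it. The GC box GGGCGG was found 8 times for DSP, 2 times for DSG2, 1 and 2 times for the outer and inner starts of DSC2, and 3 and 0 times for those of JUP. Of all windows 45.0% held it. The letters TGANTCA (AP-1), AACNNGTT (grainyhead) and TATAAA were searched on both strands too and were in none of the windows of these 4 genes, against 7.7%, 3.5% and 11.5% of all windows. A match is a description of the sequence, not a bound site.

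After 10 Gy, PPL was the member with the largest log2 difference. In FPKM, the differences of JUP (7.98) and PKP3 (-3.84) were larger in size than that of PPL (3.82). The values of PPL were 4.29, 4.30 and 4.46 FPKM at 0 Gy and 8.31, 7.76 and 8.43 FPKM at 10 Gy. The lowest irradiated library thus exceeded the highest control library by 3.30 FPKM, more than the spread within either dose. The mean increased 1.88-fold, from 4.35 ± 0.092 to 8.17 ± 0.357 FPKM (SD, n = 3), a log2 difference of 0.78 (SE 0.04) that ranked 54 of 12128 tested genes and 4 of 10491 protein-coding ones. These are the values for which the gene was selected. They came from 508 to 742 reads per library at 0 Gy and 1089 to 1910 at 10 Gy. PPL lies on chromosome 16 from 4882507 to 4960741 on the minus strand. SEC14L5 overlaps it by 2425 bases on the other strand, with at most 0.0143 FPKM. Some other members overlap genes too. The highest level among these was that of AC087588.2, which overlaps PKP2 by 426 bases on the same strand (0.628 to 2.14 FPKM). Whether reads were counted by strand is not given in the sources used here. In bulk RNA, a change in how many cells express a gene and a change in its RNA per cell cannot be told apart.

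EVPL and DSP, the other plakins here, were higher at 10 Gy by smaller amounts. EVPL had 15.3, 14.5 and 14.8 FPKM at 0 Gy and 16.6, 16.0 and 16.4 FPKM at 10 Gy. Its groups did not overlap, with a log2 difference of 0.13 (SE 0.03). DSP had 6.58, 7.12 and 7.07 FPKM at 0 Gy and 8.45, 8.22 and 7.66 FPKM at 10 Gy. Here too every irradiated library lay above every control library, with a log2 difference of 0.20 (SE 0.05). With each of the 6 libraries left out in turn, the log2 difference was 0.11 to 0.15 for EVPL, which passed the threshold only without control replicate 1, and 0.17 to 0.24 for DSP, which did not pass it without irradiated replicate 1 or 2. Within each library, PPL was 0.281 to 0.301 times EVPL at 0 Gy and 0.484 to 0.513 times at 10 Gy. PPL made up 16.6 ± 0.257% of the summed FPKM of the 3 plakins at 0 Gy and 25.0 ± 0.854% at 10 Gy (SD, n = 3), while EVPL went from 56.9 ± 1.33% to 50.1 ± 0.387%. At 10 Gy the levels of PPL and DSP overlapped, where DSP had been 1.59 times PPL at 0 Gy.

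Within the armadillo proteins of the plaque, plakoglobin and the plakophilins differed in direction. JUP had 18.7, 19.8 and 17.2 FPKM at 0 Gy and 26.1, 27.3 and 26.3 FPKM at 10 Gy. Each irradiated library was at least 6.26 FPKM above each control library, and the mean was 1.43 times that at 0 Gy, a log2 difference of 0.49 (SE 0.05). PKP3 had 16.0, 14.2 and 15.4 FPKM at 0 Gy and 11.0, 11.4 and 11.6 FPKM at 10 Gy. Its mean at 10 Gy was 0.747 times that at 0 Gy, a log2 difference of -0.39 (SE 0.05), with no overlap. PKP2 had 11.5, 12.2 and 11.6 FPKM at 0 Gy and 9.79, 9.28 and 9.21 FPKM at 10 Gy. It too was lower in every irradiated library, by 1.75 FPKM or more, a log2 difference of -0.29 (SE 0.04). JUP exceeded PKP3 by 1.12 to 1.40 times in control libraries and by 2.27 to 2.40 times in irradiated ones. PKP3 over PKP2 was 1.29 ± 0.120 at 0 Gy and 1.20 ± 0.071 at 10 Gy (SD, n = 3), with overlapping values. The sum of the 3 genes was 44.2 to 46.2 FPKM at 0 Gy and 46.9 to 48.0 FPKM at 10 Gy, and the share of JUP in it went from 40.8 ± 1.96% to 56.1 ± 0.709% (SD, n = 3).

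For the cadherin genes no difference of that size was measured. DSG2 had 24.4, 25.2 and 25.0 FPKM at 0 Gy and 24.2, 24.0 and 24.1 FPKM at 10 Gy. The irradiated libraries lay just below the controls, by 0.176 FPKM at the nearest, with a log2 difference of -0.04 (95% interval -0.11 to 0.02). This direction depended on the scaling of the libraries, since with TPM the irradiated values were all higher, at 1.06 times the control mean, and with median-of-ratios scaling the groups overlapped at 1.00 times. DSC2 had 0.991, 1.24 and 1.01 FPKM at 0 Gy and 1.17, 1.06 and 1.18 FPKM at 10 Gy, from 238 to 438 reads per library. Its groups overlapped, with a log2 difference of 0.04 (95% interval -0.14 to 0.22). JUP changed its place relative to DSG2, from 0.690 to 0.787 times DSG2 in control libraries to 1.08 to 1.14 times in irradiated ones, and JUP in place of DSG2 had the highest level of the 8 at 10 Gy.

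**Figure D2:**
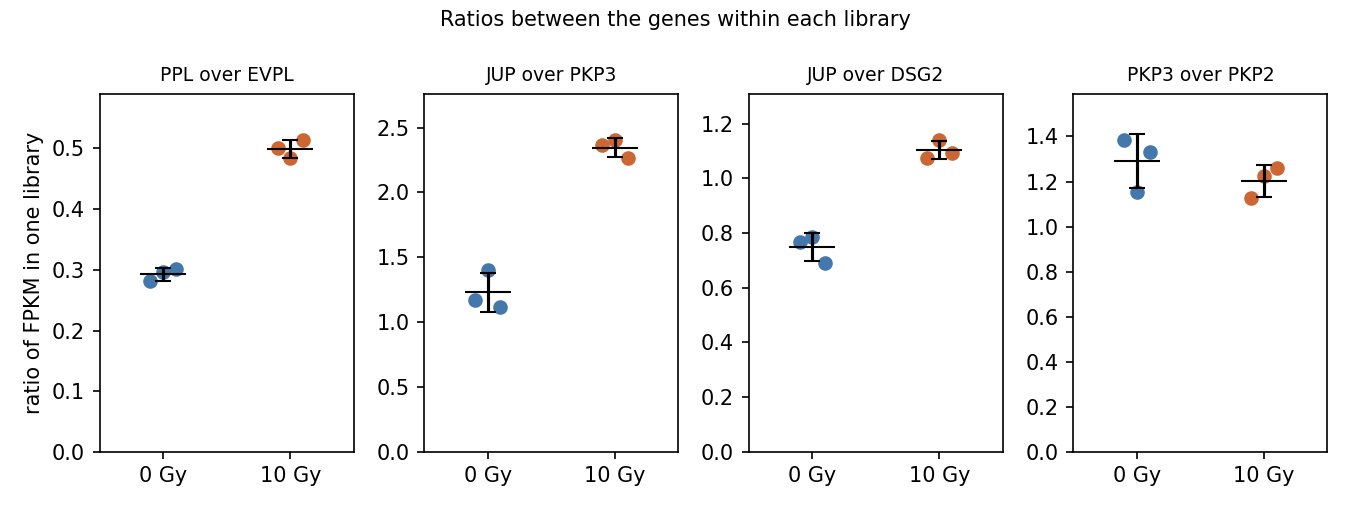
Ratios of FPKM between pairs of the genes within each library, from 0 upward, with a point for each library (0 Gy blue, 10 Gy orange) and bars for the mean ± SD of 3. A scaling factor for a library cancels in these ratios. PPL over EVPL, JUP over PKP3 and JUP over DSG2 do not overlap between doses, and PKP3 over PKP2 does.

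As a count, 4 of the 8 genes lay past the threshold of the fit and higher at 10 Gy (PPL, JUP, DSP and EVPL) and 2 lower (PKP3 and PKP2). Over all tested genes, 35.6% were called, 11.9% higher and 23.7% lower. Of the 8, 3 (PPL, JUP and PKP3) were called with a change of at least 1.3-fold, against 5.77% of all tested genes, and 7 had groups that did not overlap, against 51.9%. Since the contrast chose the group through PPL, nothing is read from these counts. The median log2 difference was 0.08 for the 8 and -0.04 for all tested genes. With TPM, which moves the median of all genes to 0.08, the genes called over the whole table were 3113 higher and 1066 lower in place of 1443 higher and 2874 lower. PPL, JUP, DSP, EVPL, PKP2 and PKP3 kept their direction and their lack of overlap under TPM and median-of-ratios scaling. With TPM the ratios of means were 2.05 for PPL, 1.56 for JUP, 0.874 for PKP2 and 0.816 for PKP3.

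Other genes of these structures were taken from 8 lists, of which 32 of 68 genes were abundant enough to test. In the deposited scaling 7 rose and 8 fell, where 11.9% of all tested genes were called higher and 23.7% lower. With TPM 14 of the 32 were called higher and 3 lower, so the split depended on the scaling. Of all 12128 tested genes, TPM called 3113 higher and 1066 lower, the background for the TPM counts of each list below. The other plakins were DST, MACF1, PLEC and EPPK1. MACF1, which links microtubules and actin, rose from 7.52, 8.67 and 9.29 FPKM to 11.3, 11.6 and 11.0 FPKM, with no overlap (log2 change 0.38, SE 0.07, adjusted p = 0.0062). PLEC, which encodes plectin and was by far the most abundant plakin, was at 203 ± 10.0 FPKM at 0 Gy and 205 ± 8.55 FPKM at 10 Gy (SD, n = 3), with overlapping values. DST, which encodes dystonin, had 8.48, 10.7 and 12.1 FPKM at 0 Gy and 13.4, 13.3 and 12.3 FPKM at 10 Gy (adjusted p = 0.069), and was called higher with TPM and with voom. EPPK1 had 3 reads at 0 Gy and 24 at 10 Gy. In the list of other desmosome genes, only PERP and PKP4 of 9 could be tested and neither was called. PERP, a tetraspan membrane protein of desmosomes, was at 27.5 ± 1.63 and 26.6 ± 1.18 FPKM, and PKP1, the plakophilin of stratified epithelium, had 1 read in all.

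Hemidesmosomes anchor the same filaments to the basement membrane. Of the 6 genes of that list, all tested, 3 fell and 0 rose in the deposited scaling, against 23.7% of all tested genes called lower. With TPM 1 was called lower (LAMB3) and 2 higher (ITGB4 and LAMA3). LAMB3, which encodes a laminin chain, fell from 123 ± 2.88 to 97.5 ± 2.42 FPKM (log2 change -0.33, SE 0.03, adjusted p = 0.0009). CD151 and ITGA6 were called lower with log2 changes of -0.23 and -0.12 in the deposited scaling, and with TPM these were -0.10 and 0.00 and not called. Over 13 alternative fits, CD151 was called in 10, the exceptions being TPM, no filter on low genes and the fit without irradiated replicate 2. ITGA6 was called in 4, and its call was lost among others without control replicate 2 or any of the irradiated replicates. ITGB4, whose product binds plectin, was at 48.5 ± 2.24 and 51.2 ± 2.91 FPKM (SD, n = 3), with overlapping values and a log2 change of 0.07, or 0.20 with TPM. LAMA3, which encodes another laminin chain, was at 3.95 ± 0.380 and 4.46 ± 0.145 FPKM, with a log2 change of 0.14, or 0.29 with TPM. COL17A1 was lower with no overlap and not called (log2 change -0.14, adjusted p = 0.058), and with TPM its log2 change was -0.05.

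In the adherens junction list, 8 of 12 genes were tested, and 3 rose and 1 fell in the deposited scaling. Over all tested genes, 11.9% were called higher and 23.7% lower. With TPM 5 of the list were called higher and 0 lower, against 3113 higher and 1066 lower of all 12128 tested genes. CTNNB1, which encodes beta-catenin, rose from 39.2 ± 1.09 to 45.8 ± 0.365 FPKM (log2 change 0.22, SE 0.03, adjusted p = 0.0027), a smaller change than that of its relative JUP, whose log2 difference was 0.49. No test was made of this difference. NECTIN2 and CTNND1 rose by 0.16 and 0.14 on the log2 scale, calls that were lost without irradiated replicate 2 (NECTIN2) or without irradiated replicate 2 or 3 (CTNND1). NECTIN1 fell by 0.28, a call that was lost with TPM. CTNNA1, the most abundant of the list, was at 81.7 ± 2.25 and 87.1 ± 1.10 FPKM (adjusted p = 0.061), and was called higher with TPM, with median-of-ratios scaling and with voom. VCL, which encodes vinculin, was called higher with TPM and voom only among these scalings. NECTIN3 was lower with no overlap and not called (log2 change -0.15, adjusted p = 0.063), and with TPM its log2 change was -0.05. The classical cadherins CDH1, CDH2 and CDH3 had means under 1 FPKM at both doses.

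**Figure D3:**
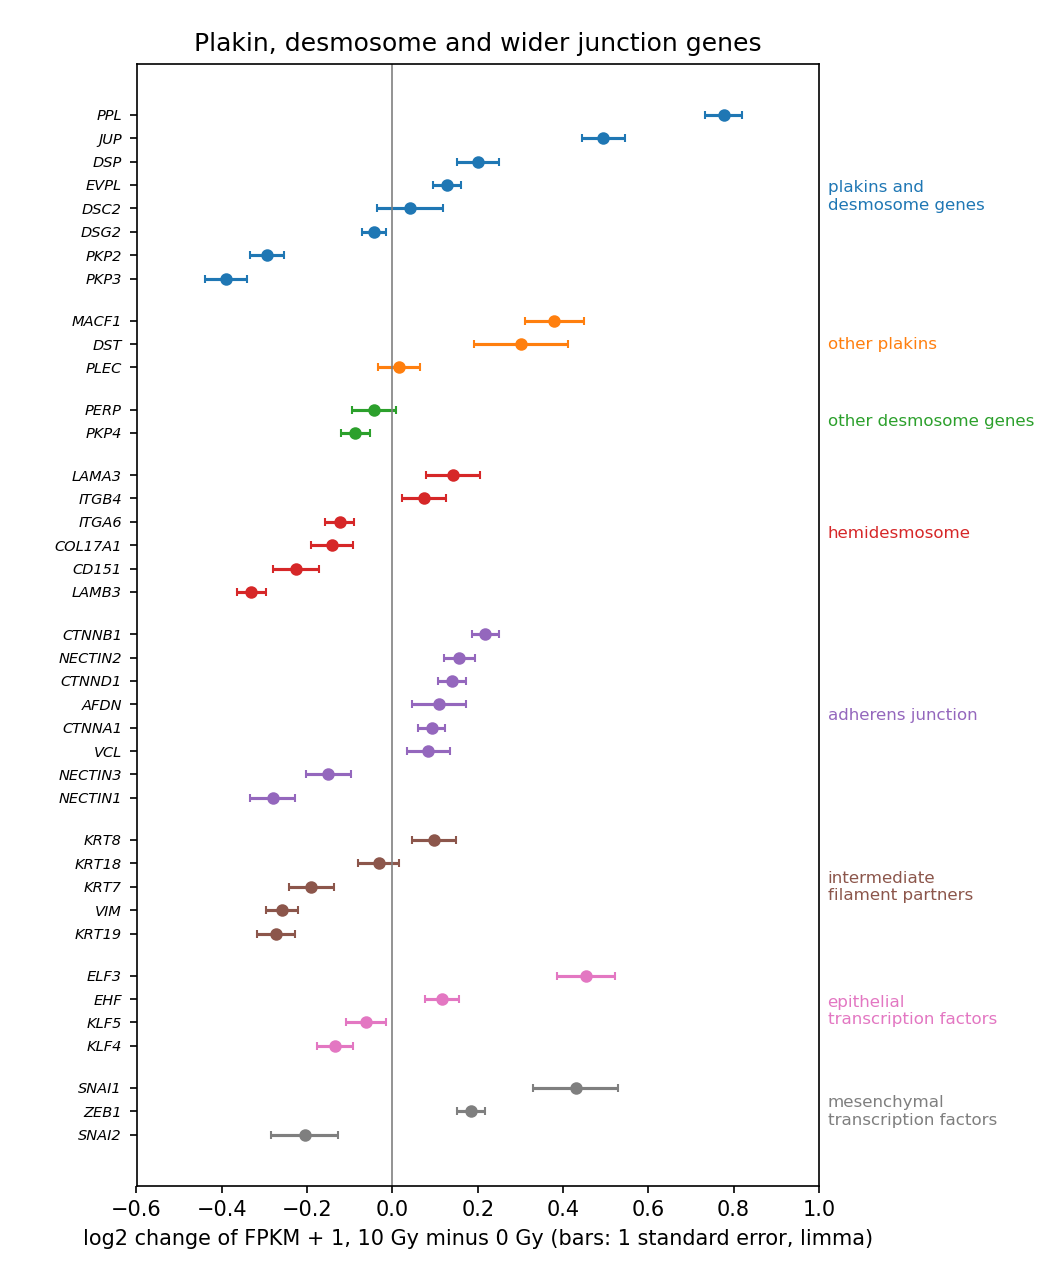
Log2 changes of FPKM + 1 from 0 Gy to 10 Gy for the 8 plakin and desmosome genes and for the tested genes of the wider lists, except the cornified envelope, with bars of 1 SE from limma. PPL lies farthest to the right at 0.78, and PKP3 farthest to the left at -0.39.

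Of the intermediate filament genes to which these plaques can attach, 5 of 8 were tested, and 3 fell and 0 rose in the deposited scaling, against 23.7% of all tested genes called lower. With TPM 2 were called lower (VIM and KRT19) and 1 higher (KRT8). VIM, which encodes vimentin, fell from 312, 297 and 294 FPKM to 251, 247 and 255 FPKM (log2 change -0.26, SE 0.04, adjusted p = 0.0029). KRT19 fell from 90.9 ± 5.17 to 75.0 ± 0.657 FPKM (log2 change -0.27, SE 0.04). KRT7 fell by 0.19 on the log2 scale. Its call was lost without the filter on low genes, with TPM and median-of-ratios scaling, and without any of the irradiated replicates. KRT8 and KRT18, the keratin pair of simple epithelia, had 90.0 to 102 and 103 to 117 FPKM at 0 Gy and 100.1 to 104 and 104 to 109 FPKM at 10 Gy and were not called in the deposited scaling. KRT8 was called higher with TPM (log2 change 0.23), with median-of-ratios scaling (0.14) and with voom (0.17). The basal keratin genes KRT5 and KRT14 had 0 and 5 reads in all. Of the 14 genes of the cornified envelope list, in which periplakin and envoplakin act in skin, only CNFN could be tested, at 2.16 ± 0.823 and 2.16 ± 1.11 FPKM (SD, n = 3), and 9 had 0 reads in every library, among them IVL and LOR.

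Transcription factors that are known for controlling junction genes were taken in an epithelial and a mesenchymal list. In the epithelial list 4 of 10 genes were tested, and 1 rose and 1 fell in the deposited scaling. Over all tested genes, 11.9% were called higher and 23.7% lower. With TPM 2 of the list were called higher and 0 lower, against 3113 higher and 1066 lower of all 12128 tested genes. ELF3 rose from 0.750, 0.787 and 0.693 FPKM to 1.34, 1.44 and 1.38 FPKM, with no overlap (log2 change 0.45, SE 0.07, adjusted p = 0.0031). Its mean at 0 Gy was under 1 FPKM, so it entered the test through the irradiated libraries, and it was also called without the filter. KLF4 was called lower with a log2 change of -0.13, a call kept in only 3 of 13 alternative fits. It was lost among others with TPM, with median-of-ratios scaling and without any of 5 of the 6 libraries. EHF, the most abundant of the list, was at 24.2 ± 1.08 and 26.3 ± 0.674 FPKM (adjusted p = 0.059), and was called higher with TPM, with median-of-ratios scaling and with voom. GRHL2 had 2 reads in all. In the mesenchymal list, 3 of 5 genes were tested and 2 rose in the deposited scaling, against 11.9% of all tested genes called higher. ZEB1 rose from 8.15 ± 0.077 to 9.39 ± 0.133 FPKM (log2 change 0.18, SE 0.03). SNAI1 rose from 1.97, 2.24 and 1.64 FPKM to 3.29, 3.09 and 2.55 FPKM (log2 change 0.43, SE 0.10, adjusted p = 0.015). This call was lost without the filter on low genes and without irradiated replicate 1 or 2. SNAI2, the other tested gene of the list, was lower at 10 Gy and not called. It was at 2.55 ± 0.327 and 2.07 ± 0.102 FPKM (SD, n = 3), with overlapping values (log2 change -0.21, SE 0.08, adjusted p = 0.079). Of 13 alternative fits, 1 called it.

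The genes whose profile over the 6 libraries was most like that of PPL were HIP1, CBFA2T2 and JAG1, by Pearson correlation of log2(FPKM + 1) among protein-coding genes. HIP1, which encodes a clathrin adaptor, had a correlation of 0.9991 and levels of 1.65 ± 0.051 and 2.54 ± 0.067 FPKM at 0 and 10 Gy (SD, n = 3). CBFA2T2, a transcriptional corepressor gene, had 0.9985, and JAG1, which encodes a Notch ligand, had 0.9979. In total 435 of 10490 genes correlated above 0.95 with PPL, and since all these points share the same 2 groups of libraries, the values describe the common step between doses.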

How the data were processed

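PolyA RNA from 6 libraries was used, 3 at 0 Gy and 3 at 10 Gy, grouped by the sample titles. The authors deposited FPKM values and gene lengths made by their sequencing provider. The labels name HISAT2 and GRCh38, and the counting program and strand setting are not given in the sources used here. Identifiers of all 58735 genes are in GENCODE 29, with equal coordinates for 58724. FPKM multiplied by gene length and a factor for each library gave whole reads (within 0.05) for 100% of values above 0, used for depth and for voom. The depth implied in the deposited values was 0.973 to 0.991 times the reads on genes at 0 Gy and 1.03 to 1.04 times at 10 Gy, a scaling that differs between doses.

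Genes averaging 1 FPKM or more were compared with limma 3.58.1 in R 4.3.3 on log2(FPKM + 1), eBayes with an intensity trend, and Benjamini-Hochberg adjustment, called under 0.05. On this scale the change of low genes is understated. The 1.3-fold value is taken from the paper, which used it for MAFF knockdown. Here it was applied to called genes on the log2(FPKM + 1) scale, where low genes need a larger change in FPKM to reach it. Replicates were distinct libraries, with chi-square values per degree of freedom of 1.88 to 6.25. The 8 genes and all lists were chosen with earlier results of these data known. Named in the text were the 8 genes, the most abundant gene and up to 4 called genes with the largest change of each list, and the 3 genes most like PPL. Other list genes, given for reference, were added after their values were seen. A result of 1 further gene is not reported here, and its list was counted without it. Figures were drawn with matplotlib 3.10.9.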

Additional observations from a re-analysis of the deposited data

How the results depend on the processing

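Over 13 alternatives (pseudocount 0.1, no filter on low genes, scaling to TPM or by median of ratios, the replicate block, eBayes without trend, voom on recovered reads, and each library left out), PPL, EVPL, DSP, JUP, DSC2, PKP2 and PKP3 kept their direction, and DSG2 did so in 10. The log2 difference ranged from 0.76 to 0.99 for PPL, 0.44 to 0.64 for JUP, -0.32 to -0.19 for PKP2 and -0.44 to -0.29 for PKP3. PPL was chosen for its change in these libraries, so its range describes the processing and is no support.

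As a description, 6 of the 8 genes passed the threshold, 3 with the 1.3-fold rule added, and 4 to 6 with a library left out, 4 without irradiated replicate 1 or 2. Over all tested genes, 4317 were called, 1443 higher and 2874 lower. Without the filter 1815 were lower. With TPM 3113 were higher and 1066 lower, and with voom 2795 were higher. Leaving out a library gave 2660 to 3993 called, 852 to 1393 higher and 1808 to 2630 lower, with 2705 without irradiated replicate 1 and 2660 without irradiated replicate 2. In the wider lists 15 genes were called, and 8 to 17 with a library left out, the fewest without irradiated replicate 2. The cause of these shifts was not tested. Deviations of same-numbered libraries correlated at -0.04, -0.035 and -0.101, so no shared deviation was seen. These values cannot tell whether same-numbered libraries were cultured or processed together. With the replicate block 3503 genes and 6 of the 8 were called. Genes averaging under 1 FPKM over the 6 libraries were not tested.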
